A study of Rattus norvegicus with 3 samples.

Results

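Magnesium transport in the rat enamel organ was followed through 8 genes. They are the CNNM family genes Cnnm1, Cnnm2, Cnnm3 and Cnnm4, the channel genes Trpm6 and Trpm7, and the transporter-related genes Slc41a1 and Magt1. The members were chosen by name, and 8 of 8 were found among the 16516 genes of the authors' deposited comparison table. Enamel organs came from rats of the Wistar Hannover strain, 5 in number, with no treatment or genotype named and no age given in the labels. RNA was sequenced from 3 populations dissected, not sorted, along the enamel organ: the cervical loop, secretory ameloblasts and ameloblasts at maturation. The cervical loop is the epithelial end where ameloblasts arise, secretory ameloblasts lay down enamel matrix, and maturation ameloblasts remove that matrix while mineral fills the space. Each population is represented by 1 deposited mean per gene, so no standard deviation stands beside a mean. The error between libraries enters through the p-values and false discovery rates (FDR) of the authors' deposited table alone.

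Magnesium ions serve as cofactors of ATP-dependent enzymes, and in growing enamel magnesium is a minor ion that can replace calcium in the mineral. Epithelia move it across the cell by an apical entry channel and a basolateral exit step. TRPM6 and TRPM7 are channels fused to a protein kinase and carry divalent cations, magnesium among them, into cells. CNNM proteins lie in the plasma membrane and are linked to magnesium exit, SLC41A1 is described as a sodium-dependent magnesium exchanger, and MAGT1 is a subunit of the oligosaccharyltransferase of the endoplasmic reticulum that has also been linked to magnesium. In people, mutations of CNNM4 cause Jalili syndrome, which combines a retinal dystrophy with defective enamel.

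Each set of stage markers was highest in the stage it is named for. The summed means of 4 secretory markers (Amelx, Ambn, Enam and Mmp20) were 2920, 112877 and 5621 in cervical loop, secretory and maturation cells. Those of 5 maturation markers (Odam, Amtn, Klk4, Slc24a4 and Wdr72) were 83.8, 554 and 5570 in the same order, and those of 3 genes of dividing cells 505, 66.2 and 60.8. Markers of other cells were present at all stages. The 6 mesenchyme markers summed to 9310, 9950 and 13167, the 6 myeloid markers to 215, 180 and 651, and the 5 endothelial markers to 146, 201 and 300 in stage order. None of these myeloid, mesenchyme or endothelial markers had a mean of 0. In bulk RNA fewer cells of a type and less RNA per cell cannot be told apart.

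The 8 genes went in 2 directions. Cnnm2, Cnnm3, Cnnm4, Trpm6 and Trpm7 had their highest mean in maturation ameloblasts, while Cnnm1, Slc41a1 and Magt1 had their lowest mean there. Over all 3 stages, 8 of 8 members passed an FDR of 0.05 in the authors' deposited table, where 67.2% of all genes did. Member FDRs of that test ran between 0.000393 for Trpm6 and 0.0231 for Magt1 in the authors' deposited table. Means have no stated unit and no length correction is known, so levels of the 8 genes are compared between stages and not between genes. Sums of marker means and shares of transcripts carry this limit. The sums follow the genes with the largest means, as with Ambn, at 5251 of the 5621 for secretory markers in maturation cells.

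**Figure D1:**
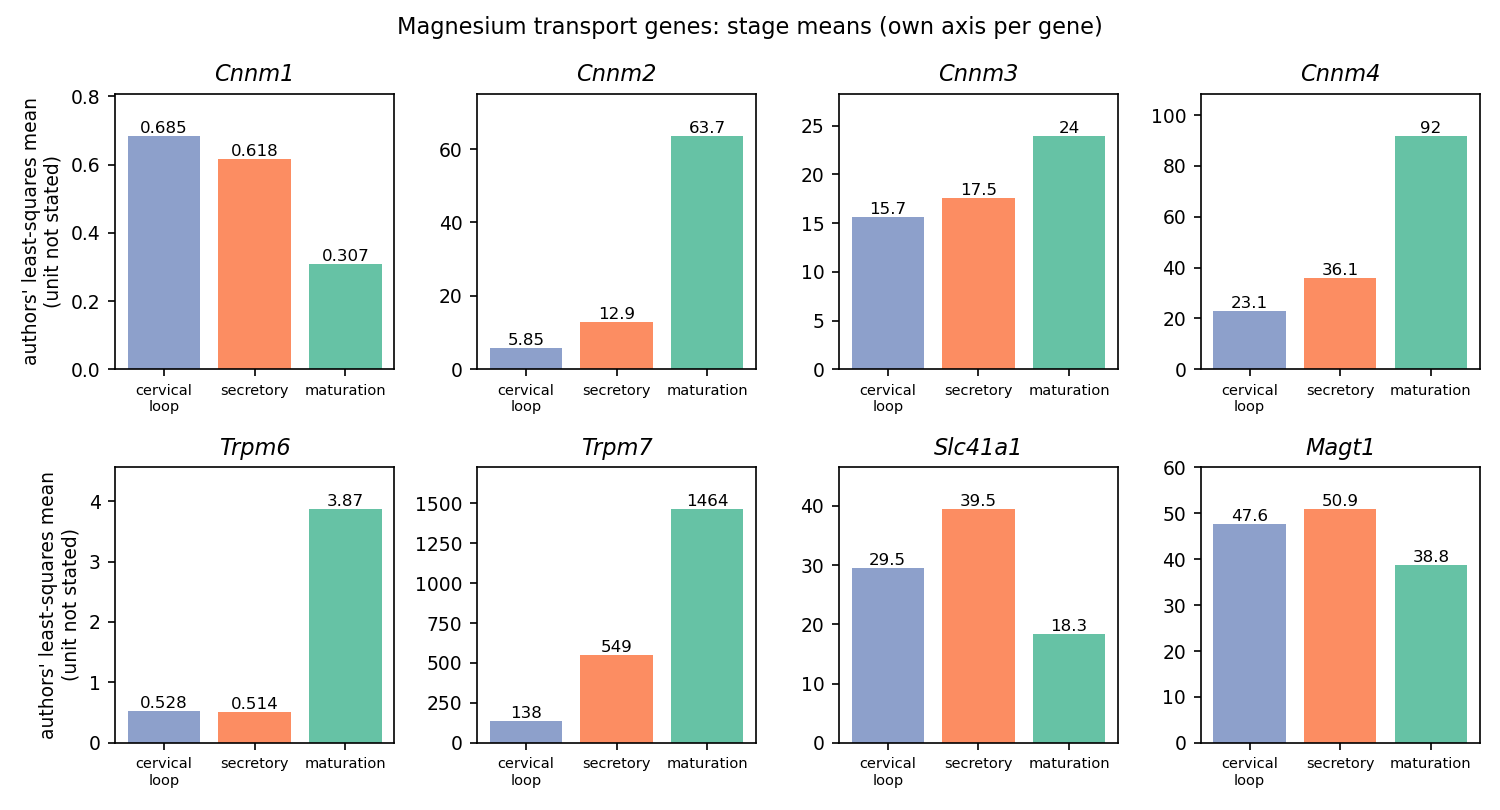
Authors' least-squares mean (vertical axis, unit not stated, own scale per gene, starting at 0) of each of the 8 magnesium transport genes in cervical loop, secretory and maturation cells, 1 deposited mean per bar and no error bars. Cnnm2, Cnnm3, Cnnm4, Trpm6 and Trpm7 are highest in maturation, and Cnnm1, Slc41a1 and Magt1 are lowest there.

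Trpm7, the widely expressed channel-kinase, had authors' means of 138, 549 and 1464 in cervical loop, secretory and maturation cells. The mean was higher at each later stage. Trpm7 was 3.99-fold higher in secretory than in cervical loop cells (FDR = 0.00402) and 2.67-fold higher at maturation than at the secretory stage (FDR = 0.00955) in the authors' deposited table. Over the whole span it was 10.6-fold higher in maturation than in cervical loop cells (FDR = 0.000287) in the authors' deposited table. Of all genes with a ratio, 1.25% had a larger one for maturation over cervical loop. Both neighbouring pairs of stages passed.

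Trpm6, the close relative of Trpm7 that in people is needed for magnesium uptake in gut and kidney, was listed at low means of 0.528, 0.514 and 3.87 in stage order, here always cervical loop, secretory and maturation. Maturation was the one stage with a mean above 1. Trpm6 was 7.52-fold higher at maturation than at the secretory stage (FDR = 0.000638) and 7.32-fold higher than in cervical loop cells (FDR = 0.000309) in the authors' deposited table. Secretory and cervical loop cells had 0.514 and 0.528, a difference that did not pass (FDR = 0.689, authors' deposited table). Because the earlier means were low, the size of the rise depended on the pseudocount: with 1 added to both means it was 3.22-fold over secretory and 3.19-fold over cervical loop cells. In the RefSeq annotation of build GRCr8, a long noncoding RNA gene overlaps Trpm6, and whether reads were counted by strand is not given in the sources used here.

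Among the CNNM genes, Cnnm2 changed most. Cnnm2, whose human counterpart is mutated in a dominant form of low blood magnesium, had authors' means of 5.85, 12.9 and 63.7 in stage order. It was 2.21-fold higher in secretory than in cervical loop cells in the authors' deposited table, close to the threshold (FDR = 0.0443). In maturation it was 4.92-fold higher than in secretory cells (FDR = 0.00176) and 10.9-fold higher than in cervical loop cells (FDR = 0.000321) in the authors' deposited table. For maturation over cervical loop, 1.22% of all genes with a ratio had a larger one.

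Cnnm4, the gene of Jalili syndrome, had authors' means of 23.1, 36.1 and 92.0 in stage order. The secretory mean lay above the cervical loop mean, by 1.57-fold, but this difference did not pass (FDR = 0.0858, authors' deposited table). In maturation Cnnm4 was 2.55-fold higher than in secretory cells (FDR = 0.00442) and 3.99-fold higher than in cervical loop cells (FDR = 0.000761) in the authors' deposited table. Both comparisons of maturation passed, while the earlier pair was under 0.05 only without adjustment.

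Cnnm3, a broadly expressed family member, showed the same order at a smaller size, with authors' means of 15.7, 17.5 and 24.0 in stage order. It was 1.37-fold higher at maturation than at the secretory stage (FDR = 0.0123) and 1.53-fold higher than in cervical loop cells (FDR = 0.00276) in the authors' deposited table. Secretory and cervical loop cells, at 17.5 and 15.7, did not pass (FDR = 0.273, authors' deposited table). In the RefSeq annotation of build GRCr8, Cnnm3 and Cnnm4 are direct neighbours on chromosome 9 with no overlap.

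Cnnm1, known mainly from brain and testis, went the other way at low levels. Its authors' means were 0.685, 0.618 and 0.307 in stage order, below 1 at every stage. It was 2.01-fold lower at maturation than at the secretory stage (FDR = 0.0286) and 2.23-fold lower than in cervical loop cells (FDR = 0.015) in the authors' deposited table, with no difference passing between secretory and cervical loop cells (FDR = 0.794). With 1 added to both means, the ratios of maturation to secretory and to cervical loop cells were 0.808 and 0.776.

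Slc41a1, the sodium-dependent exchanger, had authors' means of 29.5, 39.5 and 18.3 in stage order. The secretory mean was the highest, but at 1.34-fold over the cervical loop it did not pass (FDR = 0.0883, authors' deposited table). In maturation Slc41a1 was 2.15-fold lower than in secretory cells (FDR = 0.00242) and 1.61-fold lower than in cervical loop cells (FDR = 0.00955) in the authors' deposited table. Magt1 had authors' means of 47.6, 50.9 and 38.8 in stage order, a narrower range. It was 1.31-fold lower at maturation than at the secretory stage (FDR = 0.0188) and 1.23-fold lower than in cervical loop cells (FDR = 0.0425) in the authors' deposited table. Magt1 did not pass between secretory and cervical loop cells (FDR = 0.432, authors' deposited table).

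**Figure D2:**
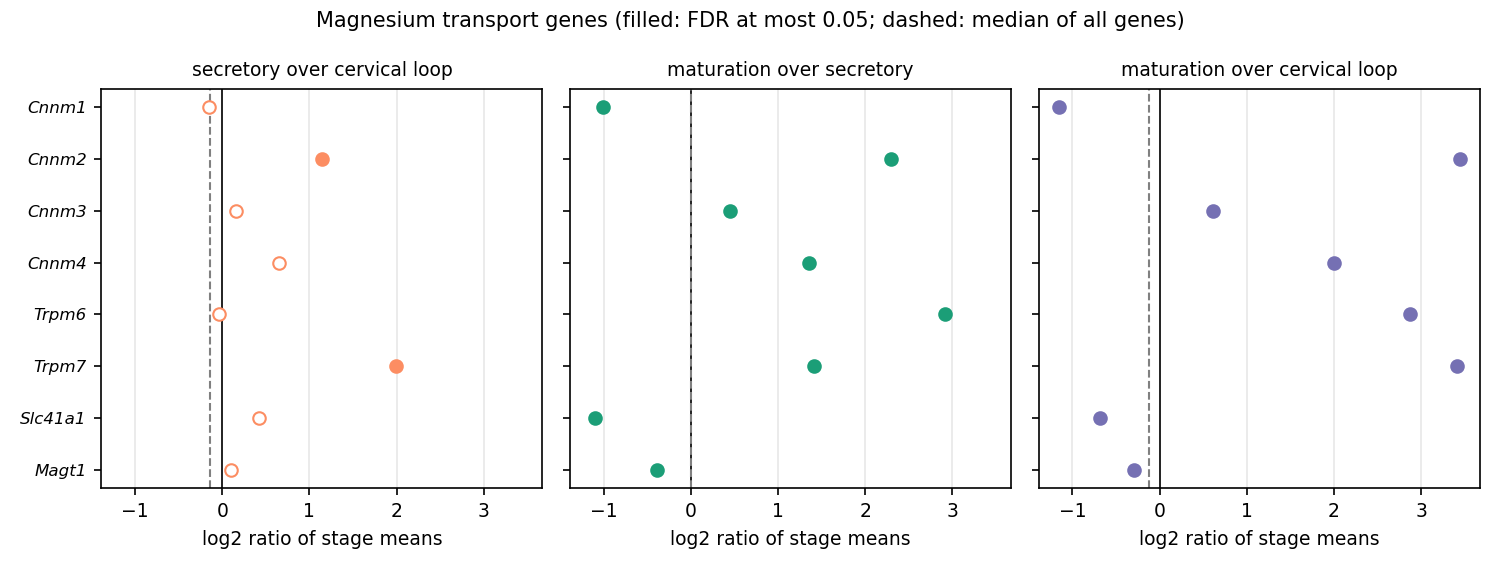
Log2 ratio of the authors' stage means (horizontal axis, shared scale) for the 8 magnesium transport genes in the 3 pairs of stages, with filled points at an FDR of at most 0.05 and a dashed line at the median of all genes. Trpm7 and Cnnm2 are the 2 filled points for secretory over cervical loop, and all 8 points are filled in both comparisons of maturation.

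For secretory over cervical loop cells, 2 of 8 members rose and 6 had no call, where 41.8% of all genes passed in either direction and 16.5% were higher (authors' deposited table). The count of members that fell was 0, where 25.2% of all genes were lower. At an unadjusted p under 0.05, 0 members were lower and 4 were higher. Of the 16516 genes, 5147 were lower and 3232 higher at that threshold. For maturation over secretory cells, 5 rose and 3 fell, where 42.9% of all genes passed, 21.8% higher and 21.1% lower (authors' deposited table). For maturation over cervical loop cells, the same 5 rose and the same 3 fell, where 57.8% of all genes passed, 24.1% higher and 33.7% lower (authors' deposited table). These comparisons share stages, so the repeat of the same directions is not independent. The median log2 ratio of the 8 members was 0.29 for secretory over cervical loop, 0.90 for maturation over secretory and 1.31 for maturation over cervical loop, beside -0.14, 0.0046 and -0.12 over all genes. All folds given are the deposited ratios, without that shift. Divided by the median ratio of all genes, maturation over cervical loop was 11.6 for Trpm7, 11.9 for Cnnm2, 7.98 for Trpm6, 4.35 for Cnnm4 and 1.67 for Cnnm3, and it was 0.489 for Cnnm1, 0.677 for Slc41a1 and 0.888 for Magt1, with each direction as before.

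Markers of other cells moved in the same comparisons. Of 6 myeloid markers, 5 rose and 1 had no call in maturation over secretory cells (summed means 651 and 180), and 5 rose and 1 had no call in maturation over cervical loop cells (651 and 215), in the authors' deposited table. Of 5 endothelial markers, 3 rose in maturation over secretory cells (summed means 300 and 201) and 5 rose in maturation over cervical loop cells (300 and 146) in the authors' deposited table. For secretory over cervical loop cells, where Trpm7 and Cnnm2 rose, 0 of 6 myeloid markers passed, also without adjustment (summed means 180 and 215) and 2 of 5 endothelial markers rose (201 and 146) in the authors' deposited table. Mesenchyme markers rose in 2 of 6 in each comparison with maturation, and 1 rose and 1 fell in secretory over cervical loop cells, in the authors' deposited table. The 6 muscle markers summed to 134 in maturation cells, against 6.49 in secretory and 2.66 in cervical loop cells, with median log2 ratios of 4.27 for maturation over secretory and 6.43 for maturation over cervical loop. Of these, 1 of 6 passed in each of those comparisons, Tnni1, with ratios in the authors' deposited table of 76.1 (FDR = 0.000999) over secretory and 101 (FDR = 0.000493) over cervical loop cells, and the largest maturation mean was that of Myh4 (52.8 in maturation, against 1.96 in secretory cells, FDR = 0.491). The part of these cells in the values of the 8 genes was not tested.

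Promoter sequences are shown for 4 members that moved differently: Trpm7 and Cnnm2, which rose at both steps, Trpm6, which rose in maturation alone, and Magt1, which fell there. RefSeq promoter entries on build GRCr8 matched 6 of 8 members by symbol, all but Cnnm4 and Slc41a1. The 250 bases before the annotated start are printed 5′ to 3′ on the strand of the gene, and capitals mark CACGTG, the E-box of basic helix-loop-helix factors, and CCAAT on either strand, the CCAAT box. For Trpm6, which has 3 annotated starts, the first of the adjacent pair is shown. The positions are chr3:134588114-134588363 on the minus strand, chr1:255584902-255585151 on the plus strand, chr1:225596058-225596307 on the plus strand and chrX:75145213-75145462 on the minus strand.
Trpm7: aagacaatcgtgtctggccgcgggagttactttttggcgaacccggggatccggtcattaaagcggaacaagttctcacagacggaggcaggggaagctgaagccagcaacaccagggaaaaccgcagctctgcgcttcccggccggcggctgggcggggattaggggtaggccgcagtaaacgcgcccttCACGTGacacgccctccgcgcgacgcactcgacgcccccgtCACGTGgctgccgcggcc
Cnnm2: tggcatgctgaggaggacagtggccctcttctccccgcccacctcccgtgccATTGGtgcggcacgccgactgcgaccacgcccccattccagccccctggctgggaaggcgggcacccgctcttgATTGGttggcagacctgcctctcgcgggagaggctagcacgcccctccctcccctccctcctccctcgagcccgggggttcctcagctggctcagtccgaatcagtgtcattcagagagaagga
Trpm6: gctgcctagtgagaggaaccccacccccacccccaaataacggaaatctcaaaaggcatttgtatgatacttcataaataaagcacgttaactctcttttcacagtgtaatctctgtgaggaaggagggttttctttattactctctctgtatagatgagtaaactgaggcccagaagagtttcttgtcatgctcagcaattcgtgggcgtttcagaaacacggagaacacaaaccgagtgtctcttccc
Magt1: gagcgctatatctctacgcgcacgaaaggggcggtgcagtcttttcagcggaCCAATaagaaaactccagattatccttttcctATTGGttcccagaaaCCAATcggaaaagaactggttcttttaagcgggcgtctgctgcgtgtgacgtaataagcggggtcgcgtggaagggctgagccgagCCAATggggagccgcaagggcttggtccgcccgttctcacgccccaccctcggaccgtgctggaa
CACGTG, which reads the same on both strands, was found 2 times before Trpm7 and in none of the other 7 windows of members, and 5.59% of all 33469 windows of this length held it. CCAAT was found 2 times before Cnnm2, 4 times before Magt1 and 0 times before Trpm7 and this start of Trpm6, and 34% of all windows held it. GGGCGG on either strand, the GC box, was found 1 time before Trpm7 and Cnnm2, 2 times before Magt1 and 0 times before Trpm6, with 30.5% of all windows holding it. TATAAA on either strand was in 0 of the 8 windows of members, against 12.9% of all windows. The GC content of the printed windows was 65.2% for Trpm7, 67.2% for Cnnm2, 44.4% for Trpm6 and 56.4% for Magt1, beside a median of 51.2% over all windows. These matches describe letters in the windows, and binding was not measured.

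Transcripts were resolved for 3 of the 8 genes. The authors' deposited transcript tables, 1 per pair of stages with 9949 transcripts each, held 7 transcripts of Cnnm4, Magt1 and Trpm7. Both Trpm7 transcripts passed in each pair, Trpm7-201 at 738 against 57.7 (FDR = 2.87e-06) and Trpm7-202 at 738 against 59.3 (FDR = 3.07e-06) for maturation against cervical loop cells in the authors' deposited table. Each transcript made up close to the same share of the gene: Trpm7-201 held 50% of the summed transcript means in maturation cells and 49.3% in cervical loop cells. How reads common to both transcripts were divided is not stated. No change in isoform make-up of Trpm7 was called in any pair (FDR = 1.0, 0.991 and 0.992 for secretory over cervical loop, maturation over secretory and maturation over cervical loop, authors' deposited tables).

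Some transcript means of a stage differed between the tables, those of Trpm7 and Cnnm4 in cervical loop and secretory cells, while their maturation means and all Magt1 means were equal. The cervical loop mean of Trpm7-201 was 57.7 in the table of maturation over cervical loop and 104 in that of secretory over cervical loop, so its folds there, 12.8 and 2.53 in the authors' deposited tables, do not multiply through as the gene folds do. The secretory mean of Trpm7-201 was 306 in the table of maturation over secretory and 264 in that of secretory over cervical loop. Folds of transcripts are therefore read within 1 table.

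Both Cnnm4 transcripts rose together. Cnnm4-201 stood at 73.4 in maturation against 28.4 in secretory cells (FDR = 0.0197) and Cnnm4-202 at 19.4 against 7.78 (FDR = 0.0189) in the authors' deposited table. Against cervical loop cells they were 4.42-fold (FDR = 0.00179) and 4.41-fold higher (FDR = 0.00264) in maturation in the authors' deposited table. Cnnm4-201 held 79.1% of the summed transcript means in maturation and 78.5% in secretory cells, and no change in make-up was called (FDR = 1.0 for maturation over secretory, authors' deposited table). Neither Cnnm4 transcript passed between secretory and cervical loop cells (FDR = 0.33 and 0.472, authors' deposited table).

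Magt1 transcripts did not pass in any pair, and 1 of 3 had an unadjusted p under 0.05, for maturation over secretory cells. Magt1-202, the transcript with the largest deposited mean, had 33.0 in maturation against 44.9 in secretory cells (FDR = 0.731, authors' deposited table). Magt1-203 had 6.01 in maturation against 4.9 in secretory cells (FDR = 0.965, authors' deposited table). The share of Magt1-203 was 15.3% in maturation and 9.74% in secretory cells, with an isoform FDR of 0.742 in the authors' deposited table. In all, 2 of 7 member transcripts passed for secretory over cervical loop, where 16% of all transcripts did (authors' deposited tables). For maturation over secretory 4 of 7 passed, where 17% did, and for maturation over cervical loop 4 of 7, where 25.2% did (authors' deposited tables). Those that passed were both transcripts of Trpm7, joined in the comparisons of maturation by both of Cnnm4. Transcripts of the same gene rose together, so these counts are not of independent features. The change in isoform make-up passed for 0 of 3 genes in each pair, where 1.19%, 1.8% and 2.79% of genes passed in the same order (authors' deposited tables), and 0 of 3 had an unadjusted p under 0.05.

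**Figure D3:**
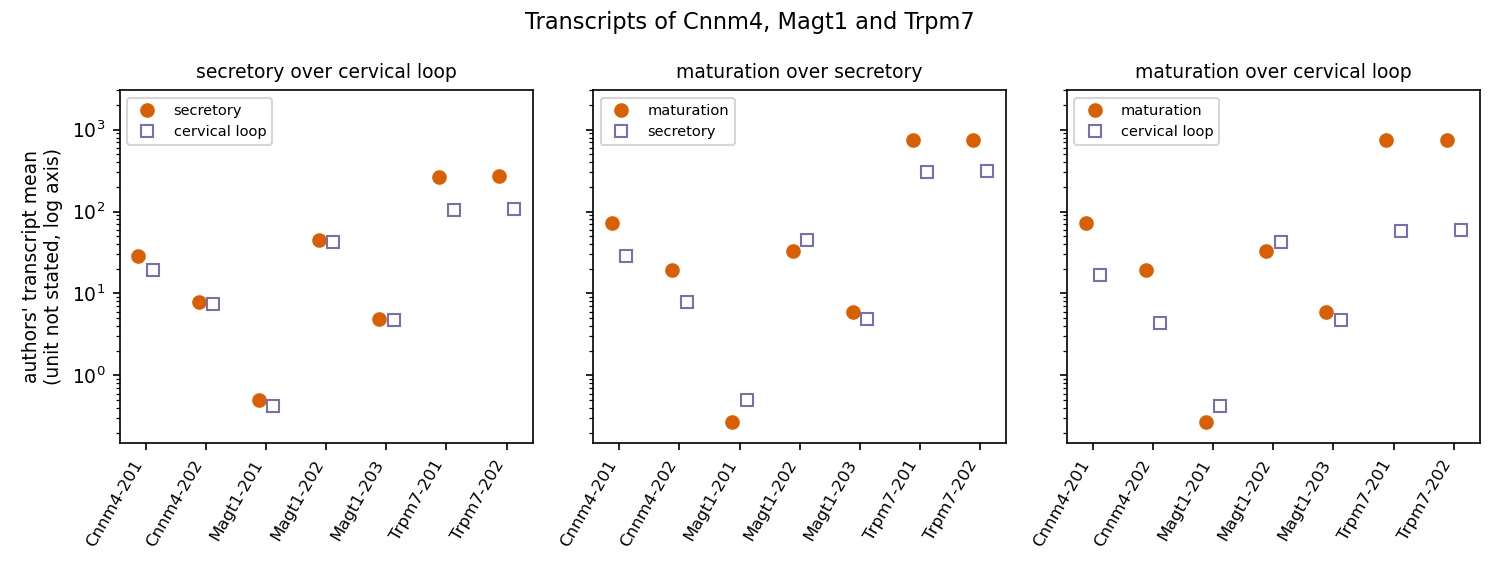
Authors' transcript means (vertical axis, log scale, unit not stated) of the 7 transcripts of Cnnm4, Magt1 and Trpm7, 1 panel per deposited table, with filled circles for the later stage and open squares for the earlier. The pair of Trpm7 transcripts lies together at 738 in maturation, far above 57.7 and 59.3 in cervical loop cells. Magt1-202 lies at 33.0 in maturation and 44.9 in secretory cells, and Magt1-201 at 0.272 and 0.505.

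Other genes of magnesium handling rose and fell in each pair. Of 35 listed genes, 29 were measured, and the others, Nipal4, Mmgt2, Cldn16, Cldn19 and Umod among them, were not analysed here. For secretory over cervical loop cells 7 rose, 9 fell and 13 had no call, where 16.5% of all genes were higher and 25.2% lower (authors' deposited table). For maturation over secretory cells 7 rose, 3 fell and 19 had no call, where 21.8% of all genes were higher and 21.1% lower (authors' deposited table). For maturation over cervical loop cells 7 rose, 8 fell and 14 had no call, where 24.1% of all genes were higher and 33.7% lower (authors' deposited table). The median log2 ratios of the 29 were -0.24, 0.40 and 0.049 in that order, beside -0.14, 0.0046 and -0.12 over all genes, and nothing particular to the list is read from these counts.

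Regulators of CNNM proteins differed among themselves. Ptp4a1, which encodes a phosphatase of the PRL family that binds CNNM proteins, had authors' means of 70.4, 134 and 513 in stage order and was 7.29-fold higher in maturation than in cervical loop cells (FDR = 0.000136) in the authors' deposited table. It was already 1.90-fold higher in secretory than in cervical loop cells (FDR = 0.0139) and 3.84-fold higher at maturation than at the secretory stage (FDR = 0.000688) in the authors' deposited table. Its relatives Ptp4a2 (35.0, 38.8 and 37.9 in stage order) and Ptp4a3 (5.08, 4.30 and 7.29) passed in 0 of the 3 pairs. Without adjustment, Ptp4a3 for maturation over secretory cells was under 0.05 (FDR = 0.0705, authors' deposited table). Arl15, a small GTPase that binds CNNM proteins, was 2.36-fold lower in secretory than in cervical loop cells (FDR = 0.0227) in the authors' deposited table.

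Other transporters went in both directions. Slc41a2, a relative of Slc41a1, had authors' means of 18.1, 32.5 and 45.4 in stage order, an order unlike that of Slc41a1. It was 1.80-fold higher in secretory than in cervical loop cells (FDR = 0.000741) and 1.39-fold higher at maturation than at the secretory stage (FDR = 0.00224) in the authors' deposited table. Slc41a3 was 1.85-fold lower in secretory than in cervical loop cells (FDR = 0.00499) in the authors' deposited table. Of the NIPA family, described as magnesium transporters, Nipal1, Nipa1 and Nipal3 had their highest means in secretory cells: Nipal1 stood at 2.56, 10.2 and 0.856, Nipa1 at 3.49, 7.30 and 3.95 in stage order, and Nipal3 at 25.7 in secretory against 5.13 in cervical loop cells. At maturation Nipal1 was 11.9-fold (FDR = 0.000327), Nipal3 1.71-fold (FDR = 0.0188) and Nipa1 1.85-fold lower (FDR = 0.00186) than at the secretory stage in the authors' deposited table. Nipa2 and Nipal2 passed in 0 of the 3 pairs, also without adjustment. Tmem94, described as a magnesium pump of the endoplasmic reticulum, had authors' means of 18.5, 49.4 and 59.1 in stage order. It was 2.67-fold higher in secretory (FDR = 0.00255) and 3.19-fold higher in maturation (FDR = 0.000627) than in cervical loop cells in the authors' deposited table. Mrs2, the mitochondrial magnesium channel, was 1.54-fold higher in maturation than in cervical loop cells (FDR = 0.00698) in the authors' deposited table. Mmgt1, a subunit of the membrane protein complex of the endoplasmic reticulum, was 1.23-fold higher at maturation than at the secretory stage (FDR = 0.0473) in the authors' deposited table.

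Of 12 genes known from magnesium handling in the kidney, 8 were measured. For secretory over cervical loop cells 1 rose, 4 fell and 3 had no call, for maturation over secretory cells 3 rose, 0 fell and 5 had no call, and for maturation over cervical loop cells 2 rose, 3 fell and 3 had no call, in the authors' deposited table beside the shares of all genes given above. At an unadjusted p under 0.05, 5 were higher and 1 was lower for maturation over secretory cells. Of all 16516 genes, 4345 were higher and 4201 lower at that threshold. Cldn10, a pore-forming claudin, had authors' means of 2.83, 6.10 and 13.5 in stage order and was 4.77-fold higher in maturation than in cervical loop cells (FDR = 0.000712) in the authors' deposited table. Egfr, whose ligand raises TRPM6 activity in kidney cells, stood at 21.6, 13.1 and 44.5 in stage order and was 3.38-fold higher at maturation than at the secretory stage (FDR = 0.000499) in the authors' deposited table. Egf was 2.26-fold higher at maturation than at the secretory stage (FDR = 0.0369) and 4.63-fold lower in secretory than in cervical loop cells (FDR = 0.00853) in the authors' deposited table, at means of 2.01 or less. Fam111a, mutated in people in a bone disorder with low parathyroid hormone, was 5.22-fold lower in secretory than in cervical loop cells (FDR = 0.000688) in the authors' deposited table. Pcbd1, which encodes an enzyme of pterin recycling, was 4.19-fold lower in that comparison (FDR = 0.00549, authors' deposited table). Its means there were low, at 0.283 in secretory and 1.19 in cervical loop cells.

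Among the 6 other Trpm channels measured, 0 rose and 3 fell for secretory over cervical loop cells in the authors' deposited table. For maturation over secretory cells 1 rose and 0 fell (authors' deposited table), beside the shares of all genes given above. For maturation over cervical loop cells 3 fell, 3 had no call and 0 rose (authors' deposited table). In that pair 33.7% of all genes were lower and 24.1% higher. At an unadjusted p under 0.05, 0 of the 6 were higher in that pair, where 4341 of 16516 genes were. The genes of 2 calcium-permeable channels, Trpm2 (4.56, 1.77 and 2.34 in stage order) and Trpm3 (1.32, 0.182 and 0.303), were 1.95-fold (FDR = 0.00544) and 4.36-fold lower (FDR = 0.00303) there in the authors' deposited table. Trpm4, which conducts monovalent cations, was 1.72-fold higher at maturation than at the secretory stage (FDR = 0.0258) in the authors' deposited table, with 8.17 in maturation and 7.70 in cervical loop cells (FDR = 0.599).

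**Figure D4:**
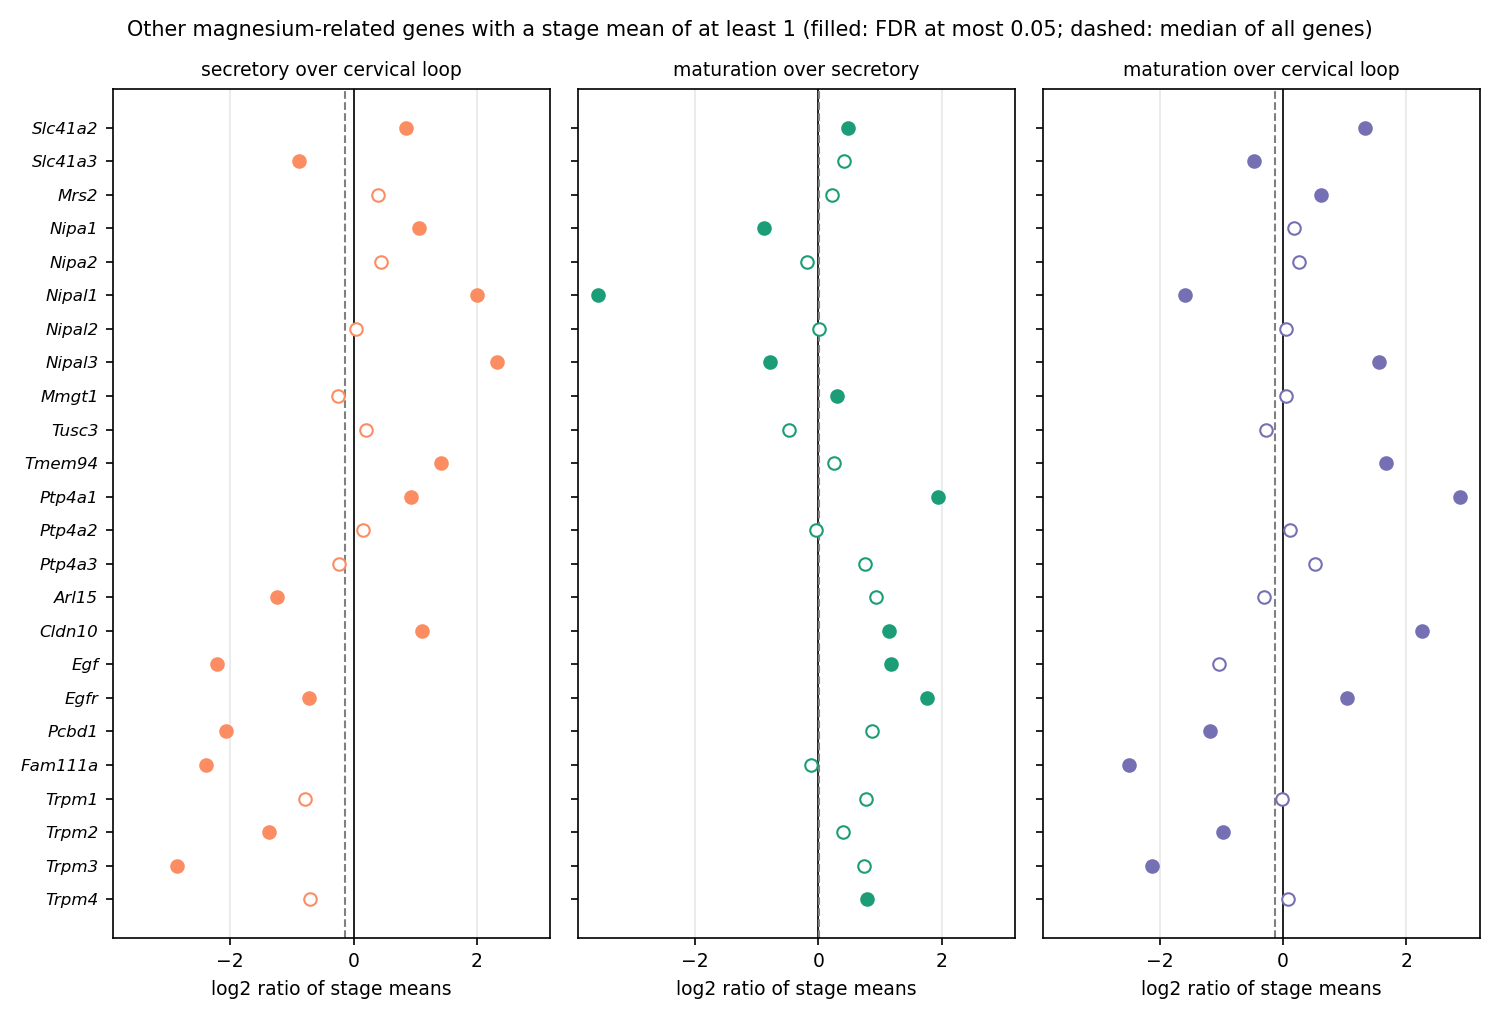
Log2 ratio of the authors' stage means (horizontal axis, shared scale) for the 24 listed magnesium-related genes with a stage mean of at least 1, in the 3 pairs of stages, with filled points at an FDR of at most 0.05 and a dashed line at the median of all genes. Ptp4a1 lies farthest right among them for maturation over cervical loop, and Nipal1 farthest left for maturation over secretory.

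Genes with patterns closest to 2 of the members were sought among 12461 other genes with every stage mean at least 1. Likeness was the distance between log2 stage means, each centred on the gene's own average, over the 3 stages. Nearest to Cnnm4 were Arhgap10, of a GTPase-activating protein (11.2, 17.6 and 43.9 in stage order, distance 0.024), Capg, of an actin-capping protein (distance 0.034), and Mapkapk3, of a protein kinase (distance 0.041). Nearest to Cnnm2, the member with the widest range, were Xpr1, a phosphate exporter (34.6, 81.4 and 423 in stage order, distance 0.119), Aldh1l1, a folate enzyme (distance 0.122), and Ptk2b, a tyrosine kinase (distance 0.139). With 3 points per gene these distances only describe the shape of the means.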

How the data were processed

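RNA from the cervical loop and from ameloblasts at the secretory and maturation stages of rats had been sequenced. Per the labels' protocols, the minimum RNA integrity number was 7, a limit that removed 1 library of the cervical loop, and each library had 25000000 reads, 75 bases long and single-end. The submitters' processing notes name STAR 2.5.3a, Partek and rn6. The sources used here do not state the annotation, gene filter, normalisation, model terms or reads per gene, so the depth behind a value is unknown and no counting interval is given.

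Per the file headers, the deposited tables give least-squares means, p-values with step-up FDRs, and ratios of stage means. A signed fold change, held as a score in the deposited tables, and a total over libraries, a signal that is not in whole numbers, were not used for results. Nothing was refitted, since each stage has 1 deposited mean. Benjamini-Hochberg adjustment of the deposited p-values over all genes gave the authors' FDR, and the threshold was 0.05. A gene rose or fell by whether the later mean was above or below the earlier one. How the libraries were paired, and whether they came from separate rats in each stage, is not stated, and the p-values measure only the spread the authors' model used. Named genes were the 8 members, list genes called in a pair with a stage mean of at least 1, and for Cnnm4 and the member with the widest range the 3 nearest genes. Ptp4a2, Ptp4a3, Nipa2 and Nipal2, outside that rule, are given beside their relatives and were chosen after their values were seen. The members and lists were chosen with earlier results of these data known. Tables were handled in Python 3.11.15 with pandas 2.3.3, and the adjustment was tested on simulated data. Of the marker lists not described with the results, 0 of 2 erythroid and 0 of 4 nerve markers rose in maturation over secretory cells (0 erythroid and 1 nerve marker without adjustment), where 1 nerve marker fell, and 3 of 3 progenitor markers fell in secretory over cervical loop cells.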

Additional observations from a re-analysis of the deposited data

How the results depend on the processing

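No paired analysis was possible because each stage has 1 deposited mean, and for the same reason no library could be left out. At an FDR of 0.01 the members higher in secretory over cervical loop cells fell to 1 (Trpm7, without Cnnm2), and the members lower in maturation fell to 1 against secretory and 1 against cervical loop cells (Slc41a1 both times), while those higher in maturation numbered 4 against secretory and 5 against cervical loop cells. With Bonferroni adjustment 0 members were called in any pair or direction. A minimum fold of 1.5 and an adjustment over genes with a stage mean of at least 1 kept every member count within 1.5 times: the first left 2 members lower (Magt1 lost) in both comparisons of maturation and 4 higher over secretory cells (Cnnm3 lost), and the second left out Cnnm1, whose means are all below 1. Among the other magnesium genes, those higher in maturation over secretory cells fell to 3 and those lower in maturation over cervical loop cells to 5 at an FDR of 0.01. Member transcripts called for maturation over secretory cells fell to 2 (both of Trpm7) at that threshold. Of 120 recomputed member ratios, most could not move by 1.5 times. The scalings used a factor shared by all genes of a pair. It was between 0.910 and 1.01 for the sum and the 75th percentile. The median ratio of all genes had log2 values of -0.14, 0.0046 and -0.12. Member means in the separate stage lists differed by at most 0.322%. With a pseudocount of 1, which could move ratios, 4 moved more than 1.5 times, all of Trpm6 and Cnnm1, and 20 did not. Over all settings 114 kept their direction within 1.5 times, and 2 changed direction. Those 2 had not passed: Trpm6 in secretory over cervical loop cells became 1.07 when divided by the median ratio of all genes, and Magt1 in that pair became 0.977 when stages were divided by their sum without the 10 largest genes. The cause was not tested.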
